A study of Mus musculus with 4 samples.

Results

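Splicing regulators are RNA-binding proteins that decide which exons of a pre-mRNA are joined. The genes described here are the SR proteins, the heterogeneous nuclear ribonucleoproteins (hnRNPs) and the families Ptbp, Rbfox, Nova, Mbnl, Celf, Khdrbs, Tra2, Qk, Srrm and Esrp. They were taken by gene symbol alone, which found 60 of the 26815 entries of the authors' deposited table. Of these, 49 had been tested by the authors and 11 had not. Poly(A) RNA was prepared from neural stem cells of the E14.5 mouse cortex (strain CD-1), kept in monolayer culture with the growth factors EGF and bFGF. All 4 cultures had received a lentivirus and were expanded under puromycin at 0.5 µg/mL. Of these, 2 carried the scrambled shRNA SHC002 and 2 an shRNA against Foxp1, pLKO.1_sh_ex15, and the duplicates of each were different passages. 1 shRNA stood for the knockdown, and the cells were purchased cortical stem cells. The deposited comparison sets a condition coded q2 against one coded q1, and no label or file header ties either code to an shRNA. Directions are therefore given as q2 relative to q1. The table has no value per library, so the spread between replicates and the read depth are unknown.

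SR proteins generally bind exonic enhancers and promote exon inclusion, while many hnRNPs repress splice sites, and the balance between both sets exon choice in most cells. Neural tissue adds regulators of its own. Ptbp1 is high in neural progenitors and represses neuronal exons, including an exon of Ptbp2 whose loss sends the Ptbp2 transcript into nonsense-mediated decay, and Ptbp2 rises as cells become neuronal. Mbnl proteins promote mature exon patterns and, in other cells, are known to repress the stem-cell-specific exon of Foxp1.

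2 of these genes, Ptbp2 and Mbnl2, carried the calls described below, and their regulated exons are shown first. In GENCODE M21 on GRCm38, the inner exon of Ptbp2 at chr3:119724612-119724645 (minus strand) has 34 bases, which is not a multiple of 3. Of the annotated transcripts, 3 hold this exon and all 3 are labelled protein coding, while 2 skip it and both are labelled nonsense-mediated decay. The exon is in capitals here, with 15 bases of each neighbouring exon in lower case, followed by the junction that skips it.
Ptbp2, exon included: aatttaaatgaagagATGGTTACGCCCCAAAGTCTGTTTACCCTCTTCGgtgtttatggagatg
Ptbp2, exon skipped: aatttaaatgaagaggtgtttatggagatg
The plot of annotated transcripts shows where these exons lie.

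Mbnl2 has an inner exon of 54 bases at chr14:120395712-120395765 (plus strand), a multiple of 3. GENCODE M21 lists 3 Mbnl2 transcripts with it and 3 without it, all protein coding. Further cassette exons of Mbnl2 have 36 bases and 95 bases, the latter not a multiple of 3. Mbnl1 also has an exon of 54 bases, at chr3:60614683-60614736 (plus strand). The copies in Mbnl1 and Mbnl2 share 46 of 54 bases, and the 8 that differ are in capitals.
Mbnl1 exon: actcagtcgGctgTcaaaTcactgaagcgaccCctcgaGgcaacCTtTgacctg
Mbnl2 exon: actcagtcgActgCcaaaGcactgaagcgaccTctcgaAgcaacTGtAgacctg
The deposited comparison gives 1 value per gene, so whether any of these exons was used differently was not measured.

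**Figure D1:**
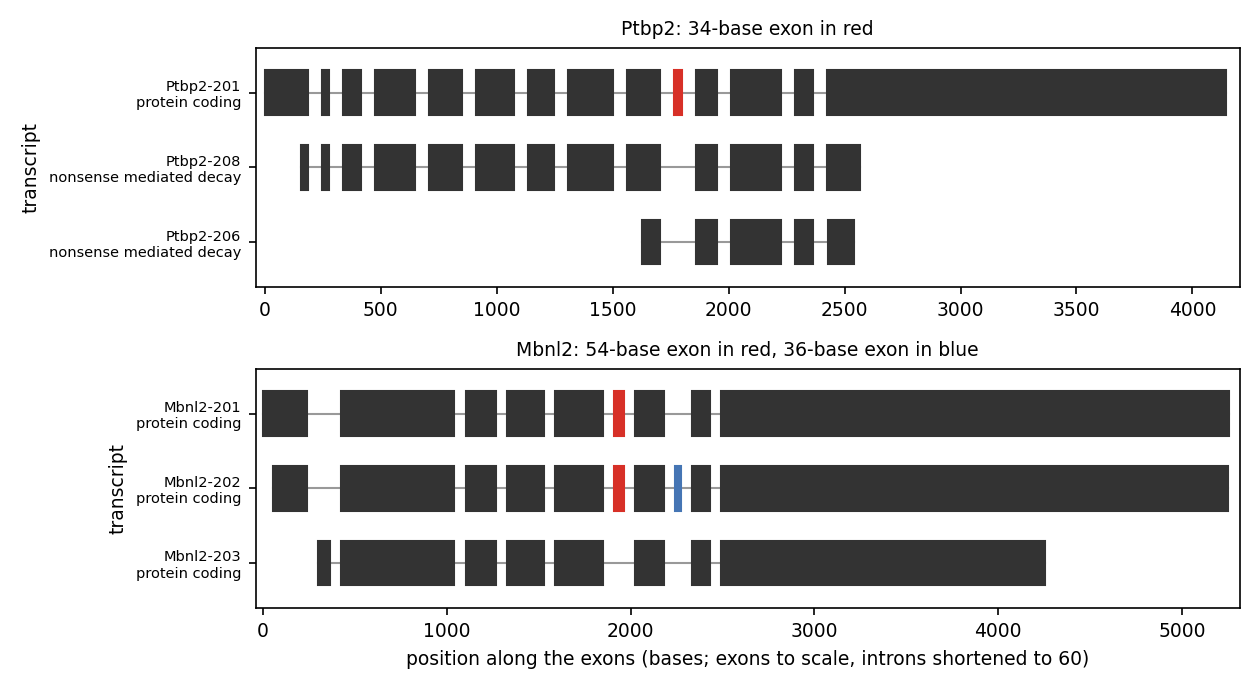
3 annotated GENCODE M21 transcripts each (y axis) of Ptbp2 and Mbnl2 along their exons in bases (x axis; exons to scale, introns shortened), with the Ptbp2 exon of 34 bases and the Mbnl2 exon of 54 bases in red and the Mbnl2 exon of 36 bases in blue. Both Ptbp2 transcripts labelled nonsense-mediated decay lack the red exon.

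Mbnl2 and Ptbp2 were lower in q2, by 2.05-fold and 1.91-fold in the authors' deposited table, and no splicing regulator was called higher. Mbnl2, a muscleblind-like protein that binds pre-mRNA and shifts splicing to adult patterns, had a log2 fold change of -1.03 in the authors' deposited table (test statistic -3.23, p = 5e-05, Cuffdiff q = 0.00162). For Ptbp2, the neuronal polypyrimidine tract-binding protein, the authors' deposited table gave a log2 fold change of -0.93 (test statistic -2.99, p = 5e-05, Cuffdiff q = 0.00162). These p and q are the smallest the table holds and are shared by 472 entries, so they do not rank both genes. Of the 49 tested splicing regulators, 2 were thus called lower at a Cuffdiff q under 0.05 and 0 higher, and 47 were not called. Over all 15315 tested entries, 3.39% were called lower, 4.24% higher and 7.63% in either direction. The 2 calls are 2 of 49, a share near that background. At an unadjusted p under 0.05 there were 4 regulators, all lower in q2 (Mbnl2, Ptbp2, Qk and Celf5). Of all tested entries, 9.74% were lower at that p and 19.2% were at that p in either direction. Among the 500 entries called lower with a finite fold change, 47% had a larger decrease than Mbnl2 and 58.6% a larger decrease than Ptbp2. In bulk samples, fewer cells of a type and less RNA per cell cannot be told apart.

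The call of Ptbp2 depended on the processing, and that of Mbnl2 did not, over the alternatives run. Once a trend of fold change with transcript GC content was subtracted from the authors' deposited values, Ptbp2 stood at -0.66 (Benjamini-Hochberg adjusted p = 0.0617). Mbnl2 then stood at -0.88 (Benjamini-Hochberg adjusted p = 0.00658), by the same subtraction from the authors' deposited table. In that version 2.76% of all genes were called lower. With p-values read from a normal distribution of the authors' statistic, the adjusted p was 0.0813 for Ptbp2 and 0.0453 for Mbnl2, beside 1.2% of all entries called lower. A required absolute log2 fold change of at least 1 also left Mbnl2 as the only call, beside 1.65% of all entries.

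The tested paralogues of both called genes had positive fold changes. In the Ptbp family, Ptbp3, a paralogue prominent in blood cells, stood at 0.40 in the authors' deposited table (q = 0.33), against -0.93 for Ptbp2. Ptbp1, the repressor of neuronal exons, stood at 0.68 in the authors' deposited table (q = 0.648). That value cannot be tied to Ptbp1 alone, because the authors' locus for it (GRCm38 chromosome 10, 79697305 to 80369637) is 672333 bases long, 65 times the 10345 bases of the annotated gene, and overlaps 52 other entries. The log2 fold change divided by its statistic gives an implied error, on the log2 scale, of 0.94 for Ptbp1, the largest among the 49 tested regulators, whose median was 0.31. Calls do not follow this error alone. The smallest absolute statistic called anywhere was 0.89, while Qk, at a statistic of -1.80, was not called. In the Mbnl family, Mbnl1 stood at 0.36 in the authors' deposited table (q = 0.389), and at 0.64 with the GC trend removed (Benjamini-Hochberg adjusted p = 0.0775). Neither Ptbp1, Ptbp3 nor Mbnl1 was called by Cuffdiff, and the differences between paralogues were not tested. Mbnl3, on chromosome X, was not tested by the authors and is listed at 1.30.

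**Figure D2:**
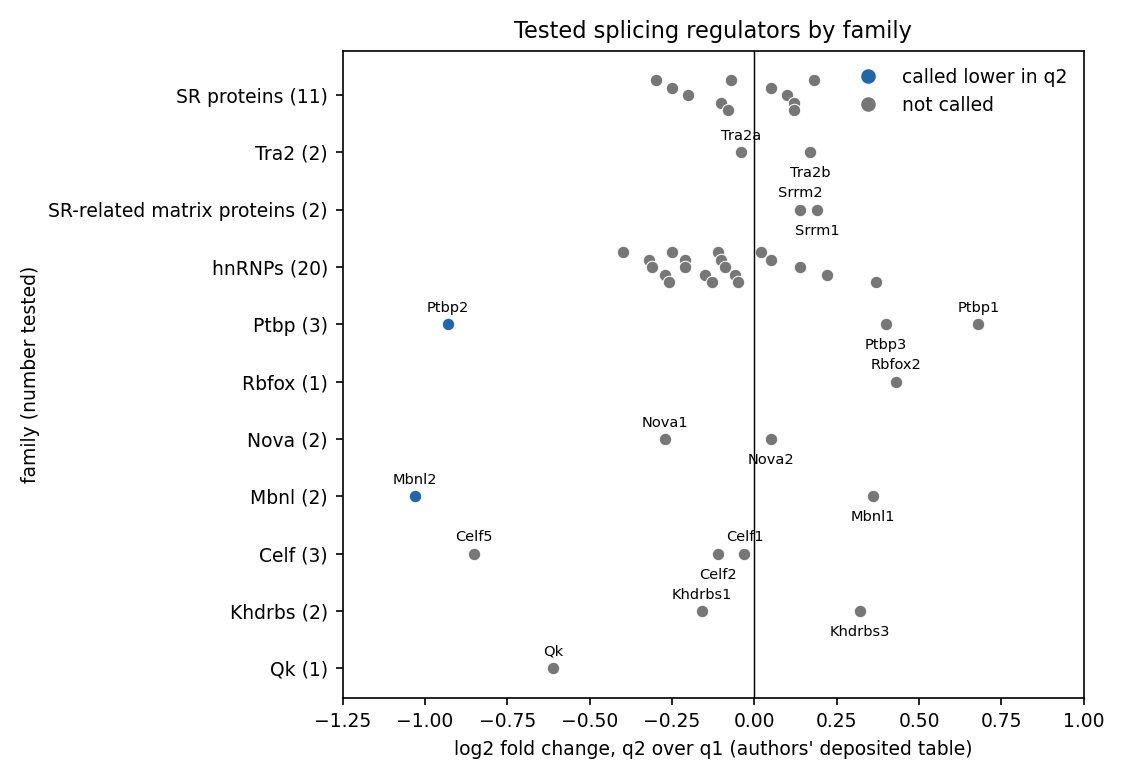
Change from q1 to q2 on the log2 scale (x axis; authors' deposited table) of the 49 tested splicing regulators by family (y axis, number tested in parentheses). Genes called lower are blue and the rest grey. The SR proteins lie between -0.30 and 0.18, and the 2 blue points are Mbnl2 at -1.03 and Ptbp2 at -0.93.

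The next largest decreases belonged to genes that did not pass the threshold. Qk, the quaking protein needed for myelin gene splicing in oligodendrocytes, was at -0.61 in the authors' deposited table (p = 0.0112, Cuffdiff q = 0.104), and at -0.34 with the GC trend removed (Benjamini-Hochberg adjusted p = 0.549). Its statistic of -1.80 was the largest in size among the uncalled regulators. Celf5, a neural member of the Celf proteins, which bind GU-rich RNA and often oppose Mbnl, was at -0.85 in the authors' deposited table (p = 0.0352, Cuffdiff q = 0.21). Celf5 has GC-rich transcripts (59.3% GC), and after subtraction of the GC trend from the authors' deposited table it stood at -1.12 (Benjamini-Hochberg adjusted p = 0.0855). Its implied error was 0.57, above the median of 0.31, and it missed the threshold with a fold change close to that of Ptbp2. The widely expressed Celf1 and Celf2 had values of -0.03 and -0.11 in the authors' deposited table and were not called.

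The tested genes of the Rbfox, Nova and Khdrbs families were not called either. Rbfox2, the Rbfox protein of progenitors and many other cells, was at 0.43 in the authors' deposited table (q = 0.294). The Nova proteins, which bind clustered short motifs in neuronal pre-mRNA, were at -0.27 for Nova1 (Cuffdiff q = 0.541) and 0.05 for Nova2 (Cuffdiff q = 0.935) in the authors' deposited table. Khdrbs1 (Sam68), a signal-regulated splicing factor, was at -0.16 in the authors' deposited table (q = 0.75). Its brain-enriched paralogue Khdrbs3, which regulates neurexin exons, was at 0.32 in the authors' deposited table (q = 0.452). Together the 14 tested genes outside the SR, Tra2, Srrm and hnRNP families ranged from -1.03 to 0.68, with a median of -0.07 and 6 above 0, in the authors' deposited table.

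The 11 regulators that the authors did not test include several that mark other cell types. Srrm4, the neuronal activator of microexons, is listed at 1.69 and Rbfox1 at 1.57 in the authors' deposited table, while Rbfox3, the neuronal antigen NeuN, is listed at -0.12. Khdrbs2 is listed at -2.02, Celf4 at -1.86, Celf6 at -0.49, Celf3 at -0.28 and Srrm3 at 0.04 in the authors' deposited table. Esrp1, an epithelial regulator, has no finite log2 fold change, and its paralogue Esrp2 is listed with a log2 fold change of 0 in the authors' deposited table. These values come without a test or an error, and no comparison rests on them.

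None of the 11 SR proteins was called, and all 11 lay within 0.5 of 0 on the log2 scale. The lowest was Srsf5 at -0.30 (Cuffdiff q = 0.5) and the highest Srsf7 at 0.18 (Cuffdiff q = 0.726) in the authors' deposited table. Srsf1, the founding member, which recognises purine-rich enhancers, was at -0.08 in the authors' deposited table (q = 0.894). Srsf10, a family member that turns into a splicing repressor when dephosphorylated, was at -0.25 in the authors' deposited table (q = 0.58), and Srsf9 at -0.20 (Cuffdiff q = 0.698). Near 0 lay Srsf3 at -0.10, Srsf6 at -0.07, Srsf4 at 0.05, Srsf11 at 0.10, and Srsf2 and Srsf12 both at 0.12 in the authors' deposited table. The authors' locus for Srsf4 is 1.65 times the annotated gene length and overlaps 1 other entry. The SR-like Tra2 proteins, which bind GA-rich enhancers, were at -0.04 for Tra2a and 0.17 for Tra2b in the authors' deposited table. The SR-related matrix proteins, co-activators that bridge enhancers and the spliceosome, were at 0.19 for Srrm1 and 0.14 for Srrm2 in the authors' deposited table. Cuffdiff called 0 of the 15 tested SR, Tra2 and Srrm genes, and 0 had an unadjusted p under 0.05, beside 7.63% and 19.2% of all tested entries.

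The 20 hnRNPs gave a narrow band as well, with 15 below 0 and 5 above, a median of -0.12 and a range from -0.40 to 0.37 in the authors' deposited table. Cuffdiff called 0 of these 20, and 0 had an unadjusted p under 0.05, against the same 7.63% and 19.2% of all tested entries. The outermost values belonged to Hnrnph2, a binder of G-rich tracts, at -0.40 (Cuffdiff q = 0.316) and to Hnrnpl, a binder of CA repeats, at 0.37 (Cuffdiff q = 0.378) in the authors' deposited table. Hnrnpa1, the classical antagonist of SR proteins, was at -0.31 in the authors' deposited table (q = 0.479), and the poly(C)-binding Hnrnpk was at -0.32. Of the relatives of Hnrnpa1, Hnrnpa2b1 and Hnrnpa3 were at -0.25 and -0.21, and Hnrnpa0 at 0.02, in the authors' deposited table. Among other members, Hnrnpdl was at -0.27, Hnrnph1 at -0.26, Hnrnpll at -0.21, Hnrnpu at -0.15 and the U-tract binder Hnrnpc at -0.13 in the authors' deposited table. Near 0 also lay Hnrnpr at -0.11, Hnrnph3 at -0.10, Hnrnpd at -0.09, Hnrnpm at -0.06, Hnrnpul1 at -0.05 and Hnrnpul2 at 0.05 in the authors' deposited table. Above 0 also lay Hnrnpf at 0.22 and Hnrnpab at 0.14 in the authors' deposited table. The authors' loci for Hnrnph3, Hnrnpab and Hnrnpk are 4.57, 3.28 and 1.64 times the annotated gene length and overlap other entries. Their values cannot be tied to these genes alone. Several hnRNP genes have processed pseudogenes with near-identical sequence, and how reads that fit both were counted is not given in the sources used here.

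Over all 49 tested regulators the median log2 fold change was -0.08 and the middle 50% lay between -0.25 and 0.12 in the authors' deposited table. For all tested entries with a finite value the median was -0.05 and the quartiles were -0.35 and 0.28. An absolute log2 fold change under 0.5 was found in 44 of 49 regulators (89.8%) and in 68.2% of all such entries. The implied error was lower in the regulators (median 0.31, range 0.31 to 0.94) than over all entries (median 0.38), so the widths of both distributions are not measured with the same precision. The smallest absolute log2 fold change called anywhere in the authors' deposited table was 0.63.

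**Figure D3:**
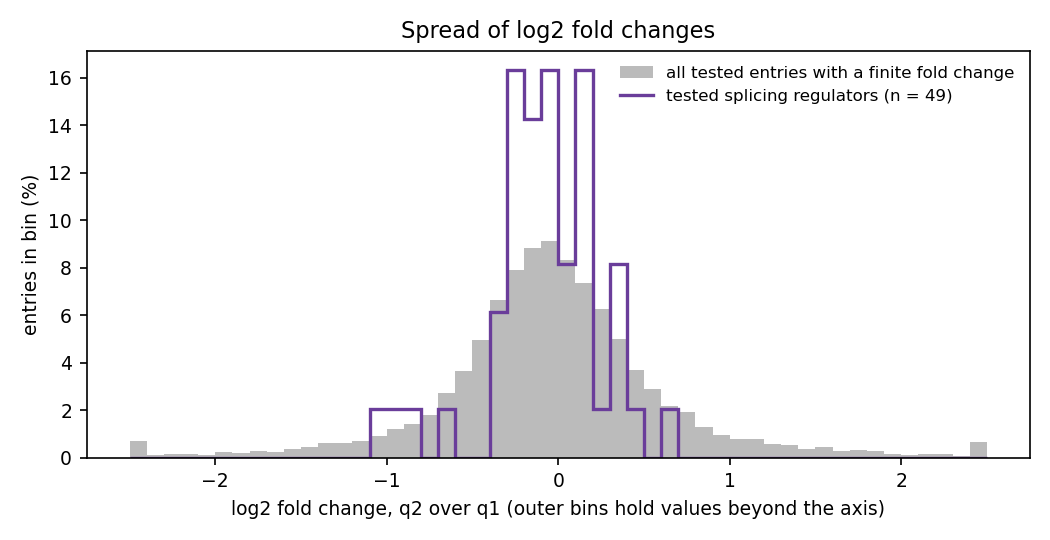
Share of entries (y axis, percent) by log2 fold change (q2 relative to q1) in bins of 0.1 (x axis), in grey for all tested entries with a finite value and as a purple line for the 49 tested splicing regulators. The regulators' middle 50% lies between -0.25 and 0.12, against -0.35 to 0.28 for all entries.

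The direction in which the regulators leaned moved with the GC content of their transcripts. When 11562 tested genes were split by GC content into 4 bins of near-equal size, the median log2 fold change was -0.26 in the lowest bin (31.2% to 46.2% GC) and 0.23 in the highest (55.2% to 78.6% GC). The regulators are GC-poor, with a median of 45.7% against 50.6% for all tested genes, and 26 of 49 fell into the lowest bin. In that bin 3 of 26 regulators had a positive fold change, and 20.2% of all genes. Across the 49 regulators, fold change and GC content had a Spearman rho of 0.45, and across all 11562 genes 0.42. Genes of 1 comparison share their libraries and are not independent. With the trend removed, 34 of 49 regulators were positive in place of 19, and the median went from -0.08 to 0.08. Among hnRNPs the positive count went from 5 to 14 of 20 and the median from -0.12 to 0.02. Among SR proteins it went from 5 to 7 of 11, with medians of -0.07 and 0.08. A shared direction of the SR proteins or hnRNPs was thus not stable, and the part of GC content in the authors' values was not tested further.

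**Figure D4:**
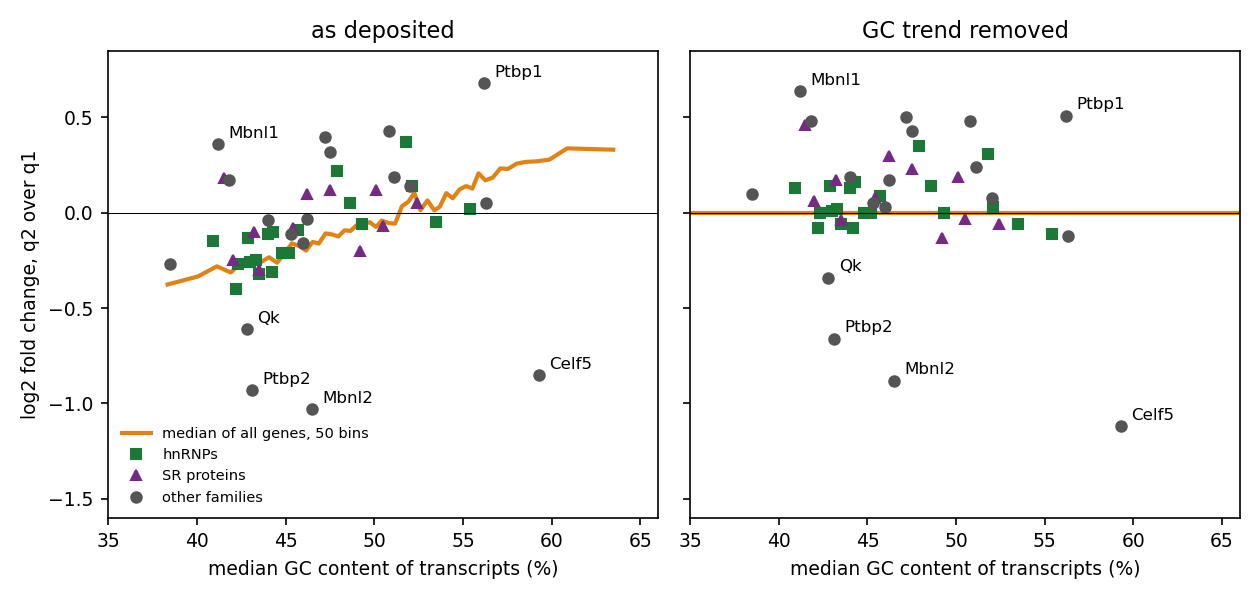
Log2 fold change of q2 over q1 (y axis) against the median GC content of a gene's transcripts in percent (x axis) for the 49 tested splicing regulators, as deposited (left) and with the GC trend removed (right). Green squares are hnRNPs, purple triangles SR proteins and grey points other families, and the orange line is the median of all genes in 50 bins; Mbnl2 moves from -1.03 to -0.88 and Ptbp2 from -0.93 to -0.66.

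Most of the regulators share a feature that the choice by symbol did not use. GENCODE M21 lists a transcript labelled nonsense-mediated decay for 30 of the 49 tested regulators (61.2%), and for 27.9% of the 11629 tested genes with a matching symbol. The share was 9 of 11 among SR proteins (81.8%) and 10 of 20 among hnRNPs (50%). SR protein genes are known for poison exons, whose inclusion destroys the transcript and keeps the level of the protein in check. A retained-intron transcript was listed for 38 of 49 regulators (77.6%), against 57.9% of all tested genes. Heavily annotated genes have more chances of such a label, and the regulators had a median of 9 annotated transcripts against 5. The 30 genes with a decay transcript had a median log2 fold change of -0.09 in the authors' deposited table, and the 19 without one -0.05. Both called genes differ here, since Ptbp2 has 2 such transcripts and Mbnl2 has 0.

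Since Ptbp2 and Mbnl2 were both called lower, their promoters were compared, taken from RefSeq on GRCm38.p6 as 250 bases before to 50 bases after the annotated start. Of the 60 regulators, 51 had such a sequence, with 81 windows in all. Capitals mark matches on either strand, overlapping ones included, to 4 motifs. The first was the forkhead motif TGTTTAC, bound by the transcription factor family that Foxp1 belongs to. The others were common promoter elements, a CCAAT box, a GC box and a TATA box. The Ptbp2 window is chr3:119783339-119783638 on the minus strand, and the Mbnl2 window chr14:120275419-120275718 on the plus strand.
Ptbp2 promoter: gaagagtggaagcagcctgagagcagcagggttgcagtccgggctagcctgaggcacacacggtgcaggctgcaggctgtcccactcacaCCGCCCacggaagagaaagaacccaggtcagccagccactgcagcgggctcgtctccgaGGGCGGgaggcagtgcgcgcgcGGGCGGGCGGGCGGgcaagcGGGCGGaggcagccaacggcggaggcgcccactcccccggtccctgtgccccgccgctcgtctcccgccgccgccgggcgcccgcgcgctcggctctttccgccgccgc
Mbnl2 promoter: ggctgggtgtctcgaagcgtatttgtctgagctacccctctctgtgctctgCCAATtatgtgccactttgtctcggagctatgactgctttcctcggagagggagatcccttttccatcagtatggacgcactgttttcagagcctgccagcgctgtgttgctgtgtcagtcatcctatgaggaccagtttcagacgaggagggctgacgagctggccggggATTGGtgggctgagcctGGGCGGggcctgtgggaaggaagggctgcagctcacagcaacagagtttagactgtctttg
The Ptbp2 window is 74.7% GC with 6 GC boxes and no CCAAT box, and the Mbnl2 window is 56.3% GC with 1 GC box and 2 CCAAT boxes. The forkhead letters are in neither window. They occur in 3.65% of all 32851 promoter windows and in 2 of the 81 windows of regulators (2.47%), those of Srsf6 and Celf3. The GC box was searched as GGGCGG, the letters bound by Sp1, and is in 66.7% of the regulators' windows and 35.7% of all windows. The regulators' windows are also richer in GC, with a median of 63.7% against 52.7% for all windows. Neither set of windows was limited to genes that the authors tested. The CCAAT box, searched by the letters of its name, is in 44.4% and 37.4% of these windows. The TATA box, searched as TATAAA, is in 9.88% of the regulators' windows and 13.6% of all windows. A match is a description of the sequence, and no binding was measured.

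Other genes of the splicing machinery were read from lists of their own. Of 40 tested core spliceosome genes, 2 were called higher in q2 and none lower, with a median of 0.10 in the authors' deposited table. That count is near the 4.24% of all tested entries called higher. These were subunits of the complex that recognises the branch point, Sf3a2 at 1.13 (Cuffdiff q = 0.00162) and Sf3b4 at 0.73 (Cuffdiff q = 0.0207) in the authors' deposited table. After subtraction of the GC trend from the authors' deposited table, Sf3a2 was at 0.94 and still called, while Sf3b4 was at 0.56 and not called (Benjamini-Hochberg adjusted p = 0.12). Of 41 other RNA-binding regulators, 3 were called higher and 1 lower, with a median of -0.05 in the authors' deposited table. Over all tested entries 4.24% were called higher and 3.39% lower. Pcbp4, a poly(C)-binding protein, was at 1.25, Rbm38 at 0.95 and the muscle splicing factor Rbm24 at 0.92, against -1.26 for the neuronal Elavl3, in the authors' deposited table. After the same subtraction from the authors' deposited table, Rbm24 was at 0.78 (Benjamini-Hochberg adjusted p = 0.0617) and Rbm38 at 0.61 (Benjamini-Hochberg adjusted p = 0.134), and neither was called. Cuffdiff called 0 of 9 tested kinases that phosphorylate SR proteins, with 3 at an unadjusted p under 0.05. The shares over all tested entries were 7.63% and 19.2%. The largest statistics among the kinases were those of Clk4 at -0.69 (Cuffdiff q = 0.118) and Srpk2 at -0.58 (Cuffdiff q = 0.182) in the authors' deposited table. Cuffdiff also called 0 of 5 exon junction complex genes, with 0 at an unadjusted p under 0.05, beside the same shares of all tested entries. The largest statistics were Casc3 at 0.30 and Eif4a3 at -0.13 in the authors' deposited table.

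**Figure D5:**
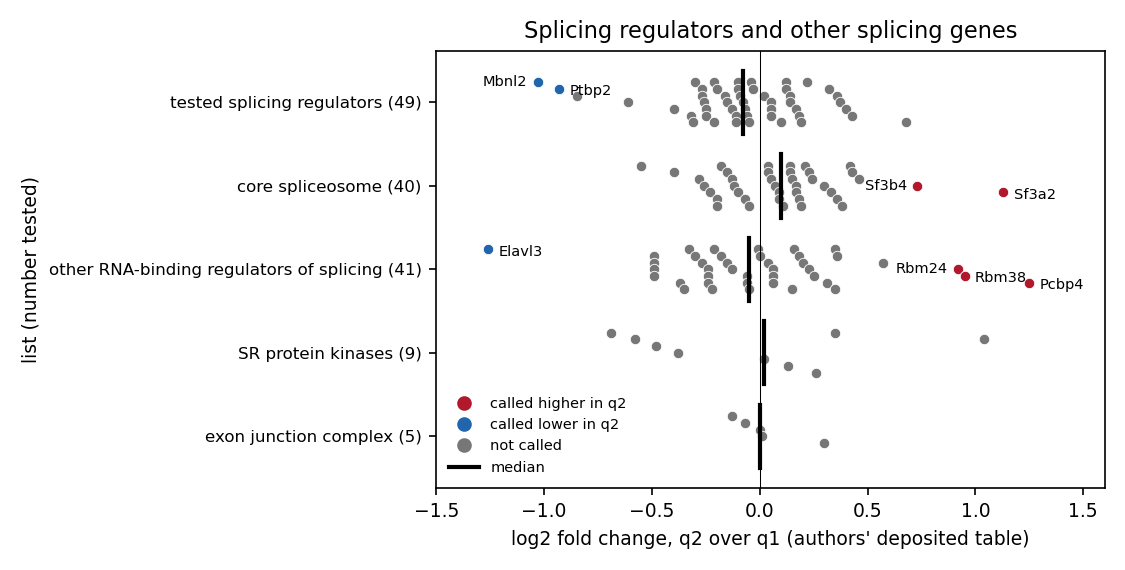
Change from q1 to q2 on the log2 scale (x axis; authors' deposited table) of the tested splicing regulators and 4 lists of other splicing genes (y axis, number tested in parentheses). Genes called higher are red, genes called lower blue and all others grey, with medians as black bars, -0.08 for the regulators and 0.10 for the core spliceosome.

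Values that touch these results come from the targeted gene and from markers of cell types in which the regulators differ. In the authors' deposited table, Foxp1 was lower in q2 by 4.09-fold (Cuffdiff q = 0.00162). Beside the marker counts that follow, 3.39% of all tested entries were called lower and 4.24% higher. Of 5 tested neuron markers, Syt1 was called higher at 1.48 in the authors' deposited table and 4 were not called, with values of -0.65 for Tubb3, -0.13 for Map2, 0.23 for Snap25 and 0.44 for Syp. The authors did not test the neuron markers Dcx, Stmn2 and Rbfox3. In the astrocyte list 4 of 5 tested markers were called lower, with values from -2.70 to -0.20 in the authors' deposited table. In the oligodendrocyte lineage list, Pdgfra was called lower at -2.83 and Mbp higher at 1.75 in the authors' deposited table. Mbnl2, Ptbp2 and Qk are expressed in glia or neurons as well as in progenitors, and the part of these cell types in their lower values was not tested. Of 7 tested neural stem cell markers, 2 were called higher (Sox1 and Nes) and 1 lower (Fabp7), with Sox2 at 0.04 in the authors' deposited table. Sox1 and Fabp7 kept their calls with the GC trend removed, and Nes did not. In the fibroblast list 2 of 3 tested genes were called higher, and 1 microglia gene, 1 endothelial gene and 0 epithelial genes were tested, none of them called.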

How the data were processed

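RNA of 4 cultures, 2 per shRNA by sample title, was compared by the authors in 1 table. The authors' tools were TopHat2 2.0.9, Cufflinks 2.2.1 and Cuffdiff, on build mm10 (GRCm38), per the submitters' processing notes. How strand and reads with several matches were handled, and with which annotation, is not given in the sources used here. The log2 fold changes are, per the file headers, those of q2 over q1, and the test statistic is a score that the authors deposited. Each p-value and q-value was also deposited by the authors, from Cuffdiff. A call is a deposited q under 0.05. The duplicates are passages of purchased cells, so Cuffdiff's p-values do not measure the spread between independently derived cultures. The 2 columns of per-condition values could not be tied to a group and were left out, so expression levels, depth and its precision are unknown. Starts of loci were converted to count from 1.

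The members and lists were chosen with earlier results of these data known. All members are named; called ones carry full statistics, and in each companion list called genes, or else those with the largest statistic. Of the symbols in the companion lists, 2 core spliceosome and 3 other RNA-binding symbols match no entry as written. A result of the oligodendrocyte marker list is not reported here. Transcript GC content (median) and length (maximum) came from GENCODE M21 by symbol, for 11562 of 12090 genes and all 49 tested members. The median log2 fold change in 50 bins was subtracted, each p was taken from how deposited p-values fall with the statistic, and these were Benjamini-Hochberg adjusted. That step assumes that p never rises with the size of the statistic, which does not hold for every deposited p-value. The alternatives changed the q (0.01 or 0.1), required a minimum fold change, used normal p-values, centred all values, kept entries without overlapping loci, or removed a GC or length trend. Scripts ran in Python 3.11.15 with matplotlib 3.10.9, scikit-learn 1.9.0, scipy 1.17.1, pandas 2.3.3 and numpy 2.4.6.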

Additional observations from a re-analysis of the deposited data

How the results depend on the processing

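At a q of 0.01, 2 splicing regulators were called lower in q2, beside 281 of 15197 tested entries with a finite fold change. At a q of 0.1 the count was also 2, beside 734 of 15197. It stayed 2 with centring (463 of 15197), loci free of overlap (431 of 12417) and a length trend removed (355 of 11562). Each time these were Mbnl2 and Ptbp2. The count was 1, Mbnl2, with an absolute log2 fold change of at least 1, with normal p-values and with the GC trend removed. The shares of all entries called lower were 1.65%, 1.2% and 2.76% there. Ptbp2 lost its call there at -0.93, -0.93 and -0.66. The count called higher was 0 under each of these 8 alternatives. Over all entries, those called higher ran from 242 of 15197 with normal p-values to 832 of 15197 at a q of 0.1. With the GC trend removed 34 of 49 regulators were positive in place of 19, and the median was 0.08 in place of -0.08; other settings gave medians from -0.09 to -0.02. Reading p from the statistic with no trend removed kept both calls, so the loss of Ptbp2 came with the trend's removal. Centring moved the median of all entries by 0.05 and left 21 regulators positive. Of the 49 tested regulators, 8 lie in loci that overlap other entries: Celf2, Hnrnpab, Hnrnph3, Hnrnpk, Ptbp1, Rbfox2, Srrm2 and Srsf4. The cause of the GC trend was not tested. No paired analysis was possible because the deposited comparison holds no value per library, and no replicate could be left out for the same reason. Differences under a log2 of about 0.6 were not called anywhere in the table.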
